A study of Schizosaccharomyces pombe with 4 samples.

Results

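The 5S ribosomal RNA genes of fission yeast (Schizosaccharomyces pombe) were examined in small RNA libraries of a wild-type strain and of a strain labelled ABP1d. The genes were taken from the RefSeq annotation of assembly ASM294v3 as all those on chromosomes I to III with a 5S rRNA product, which gave 36 genes of 12574 annotated genes. Deposited regions that overlapped such a gene by at least 1 base were used, which gave 37 of the 4012 windows compared between the strains, on 35 of the 36 genes. Each strain had 2 libraries, made from total RNA of untreated cells growing exponentially in rich medium and read for 38 cycles. Abp1 is a homolog of the centromere protein CENP-B, and the series asks about its role at retrotransposons and rRNA genes. The labels give the ABP1d genotype by that name alone, with no allele or marker, and nothing states that the libraries of a strain came from separate cultures. The files hold 1 pooled value per strain, so the spread between libraries is unknown for every difference given. Intervals are exact 95% binomial ones on pooled reads and cover counting error only.

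5S rRNA is the small RNA of the large ribosomal subunit that is not cut from the long rRNA precursor. RNA polymerase III makes it with the help of TFIIIA, a zinc finger factor that binds inside the gene, and stops within a run of T. The La protein holds the U-rich end of the new transcript, and the ribosomal proteins Rpl5 and Rpl11 then carry the RNA into the growing subunit. In many eukaryotes the genes form tandem arrays, whereas in fission yeast they are scattered as single copies.

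The genes lay at 12 sites on chromosome I, 16 on chromosome II and 8 on chromosome III, with 21 on the plus strand and 15 on the minus strand. No other annotated gene overlapped them, although 23 overlapped a plain sequence feature that was not annotated on their own strand. The count did not check that such a feature is an RNA. The files carry no strand, so reads of the 5S RNA and of any RNA from such a feature cannot be told apart. Annotated lengths ran from 80 to 440 bases with a median of 150, although a 119-base sequence recurred in almost every gene. This sequence, called the core here, is the commonest 119-base gene sequence in the annotation. It was unchanged in 23 genes and present with 1 to 3 substitutions in 11 others, with no more than 3 in any of the 34. It is shown from SPRRNA.17 (chr1:3830380-3830498, plus strand, ASM294v3), because the variation between copies is described on it; capitals mark the 12 positions at which at least 1 other copy differed.
SPRRNA.17: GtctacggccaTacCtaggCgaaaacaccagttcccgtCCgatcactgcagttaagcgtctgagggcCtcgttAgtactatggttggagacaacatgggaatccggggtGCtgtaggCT
The copies below carried the substitutions on which the results turn, and capitals mark their changed bases. They lie at chr2:4161619-4161737 (minus strand), chr1:912230-912348 (minus strand) and chr2:2322733-2322851 (plus strand).
SPRRNA.37: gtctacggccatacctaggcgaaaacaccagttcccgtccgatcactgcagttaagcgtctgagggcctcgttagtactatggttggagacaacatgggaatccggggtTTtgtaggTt
SPRRNA.12: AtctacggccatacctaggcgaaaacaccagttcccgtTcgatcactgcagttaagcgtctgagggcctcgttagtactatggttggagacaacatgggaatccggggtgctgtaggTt
SPRRNA.35: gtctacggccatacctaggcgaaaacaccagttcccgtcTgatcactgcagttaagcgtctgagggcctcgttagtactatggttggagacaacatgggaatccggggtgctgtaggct
With positions counted from 1 at the 5′ end of the core, SPRRNA.37 carried G110T, C111T and C118T, SPRRNA.12 carried G1A, C39T and C118T, and SPRRNA.35 carried C40T.

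The sequence around the core was searched for a pair of short motifs. The letters TATA occurred within the 40 bases before the core in 27 of 34 copies (79.4%), with the first match starting 29 bases before it in the median. Before tRNA genes, which the same polymerase transcribes, 77.2% of 40-base stretches held these letters, and before protein-coding genes 29.9%. A run of TTTT lay within the 20 bases after the core in 30 of 34 copies (88.2%), against 93.6% of tRNA genes and 25.0% of protein-coding genes. Both searches read the gene's strand alone, and a match is a description of letters and not of a site.

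The deposited unit is RPKM, and multiplying it by length returned whole reads in every region. A 5S gene with an unchanged core carried 179914 to 189586 reads in ABP1d, with a median of 180581 over the 23 copies. The same copies carried 45595 to 50795 reads in WT, with a median of 46088. Scaled to the strain totals these medians were 7582 and 3186 RPM (reads scaled by the total, as RPKM is but without the length), and the lowest ABP1d copy lay above the highest WT copy. The main window of a copy (the one with the most reads on a gene) came in the median to 0.756% of the total in ABP1d and 0.319% in WT. The copies cannot be added up as separate measurements, and no share of reads is given for the 5S genes together: SPRRNA.13, SPRRNA.17 and SPRRNA.03, on chromosomes I and III, each had 180581 reads in ABP1d and 46088 in WT. SPRRNA.06 and SPRRNA.32 differed from them by at most 1 read in each strain. How the authors placed reads that match several genes was not given in the sources used here.

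**Figure D1:**
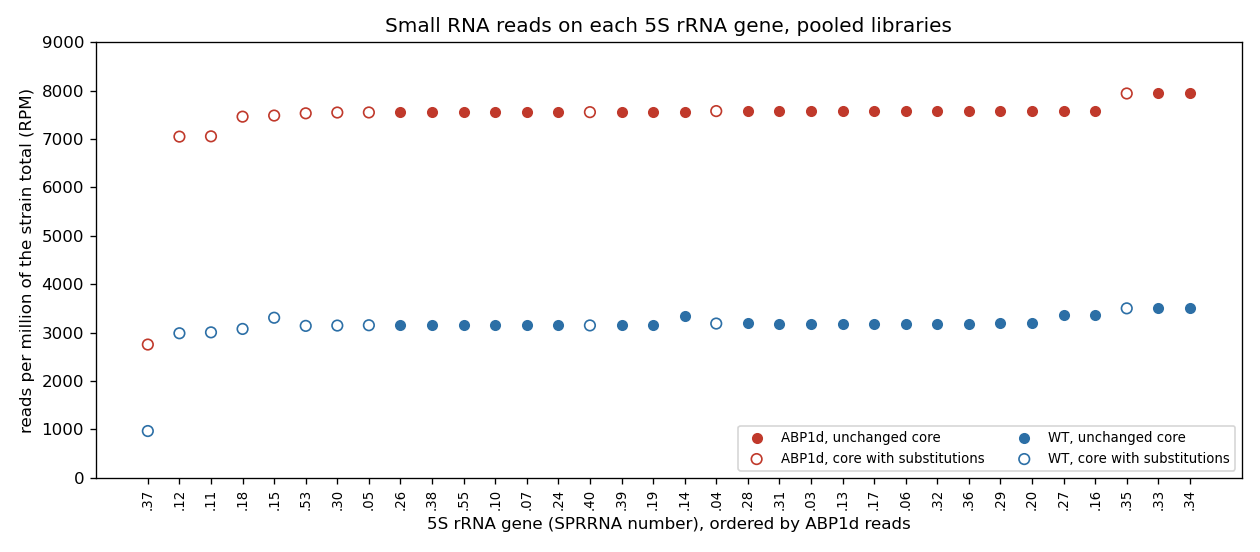
RPM on the main window of each of the 34 core-bearing 5S genes, 1 point per gene and strain from pooled libraries, with filled points for unchanged cores and open points for cores with substitutions. The ABP1d points lie near 7582 RPM and the WT points near 3186, and SPRRNA.37 is far below the others in both strains.

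Of the 37 windows, 35 were higher in ABP1d (94.6%) and 2 were lower, whereas 82.9% of all 4012 listed windows were higher and 17.1% lower. Most 5S windows share their reads, so the 94.6% counts windows and not separate observations. The median log2 ratio was 1.25, which was below the median of 1.78 over all listed windows. Main windows on the 34 core-bearing genes were all higher, by 2.26-fold to 2.86-fold. In SPRRNA.17, for example, 57439 RPKM in ABP1d stood against 24136 in WT, and the ratio was 2.38 (2.36 to 2.40). The p-value was 0 for 34 of the 37 windows in the authors' deposited table. These directions depend on the scaling. With totals taken without the rRNA repeats and 5S genes the median log2 ratio was 0.98. It was -0.53 with all listed windows centred on their median and -0.35 with snRNA windows centred, and all 37 windows were then lower. Both references lay far below the 5S windows in level, with median WT levels of 0.0691 RPM over all listed windows and 0.277 over snRNA windows. Counts below 3 reads were set to 3 before the log2 medians were taken. The median WT level of 0.0691 RPM over all listed windows is that of 1 read, so the floor entered their median of 1.78. The table also lists no window with a p above 0.0494, so those medians are not known to be a stable reference.

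Other stable RNAs gave different levels and ratios. The main 5.8S window of an rRNA repeat (chromosome III, 9816 to 10009), whose RNA pairs with 28S rRNA in the same subunit, stood at 93465 RPKM in ABP1d beside 81952 in WT, with a ratio of 1.14 (1.13 to 1.15). The 177 windows on tRNA genes were all higher, their median log2 ratio was 1.84, and they lay at a median level of 113 RPM in ABP1d and 26.0 in WT. The main window of the SRP RNA, another RNA polymerase III product that is part of the signal recognition particle, had 1881 reads against 976, a ratio of 1.17 (1.08 to 1.27). Its other window had 28 reads against 4, a ratio of 4.25 (1.49 to 16.7), whose interval held the ratios of all unchanged 5S copies. U6 snRNA, made by the same polymerase, had 2 windows with 30 reads against 8 and 12 against 1.

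The list of each strain held a region on the same 34 genes. These were 11.0% of the ABP1d regions and 17.9% of the WT regions. Among the 50 regions with the most reads in each list, 34 in ABP1d and 33 in WT were on 5S genes. Most of these regions share their reads, so the counts are of regions and not of separate reads.

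The ends of the windows followed the core and not the annotated gene, except for 5 later starts on copies with substitutions. On the 16 unchanged plus-strand copies the windows began at core base 1 in the median and ended 13 bases past the core. On the 7 minus-strand copies they began at core base -1, where 0 is the base just before the core, and ended 12 bases past it. The opposite offset on the strands shows that positions are known to about 1 base only. Shifting both ends by 1 base put the median start at base 0 on both strands, and the median ends at 12 and 13 bases past the core. Window lengths on these 23 copies were 130 to 134 bases. In contrast, 25 of the 34 main windows began inside the annotated gene, 16 ended before its annotated end, and 21 were shorter than it. The 25 include the 5 windows on copies with substitutions, which began at core bases 9 to 42. Some of the 25 starts, such as that on SPRRNA.39, lay only 1 base inside the gene, which is within the uncertainty of positions. The gene annotated at 440 bases, SPRRNA.32 (chromosome II, 1406385 to 1406824), had a window of 132 bases (1406585 to 1406716) that began 200 bases after the annotated start. SPRRNA.17, annotated as the core alone, had a window of the same length (chromosome I, 3830380 to 3830511).

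At the 3′ end the lists of the strains differed. WT regions ended 8 to 14 bases past the core, with a median of 13, and ABP1d regions ended at -1 to 6, with a median of 4. The WT region reached further in 34 of 34 copies, by 7 to 10 bases with a median of 8. The ABP1d region still held all ABP1d reads of the main window on the 23 unchanged copies, and at least 99.69% on the others. The rule by which the authors set region ends was not given in the sources used here. A region end is thus not known to be a read end. Copies share their reads, so these are not 34 separate observations, and no test was made.

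**Figure D2:**
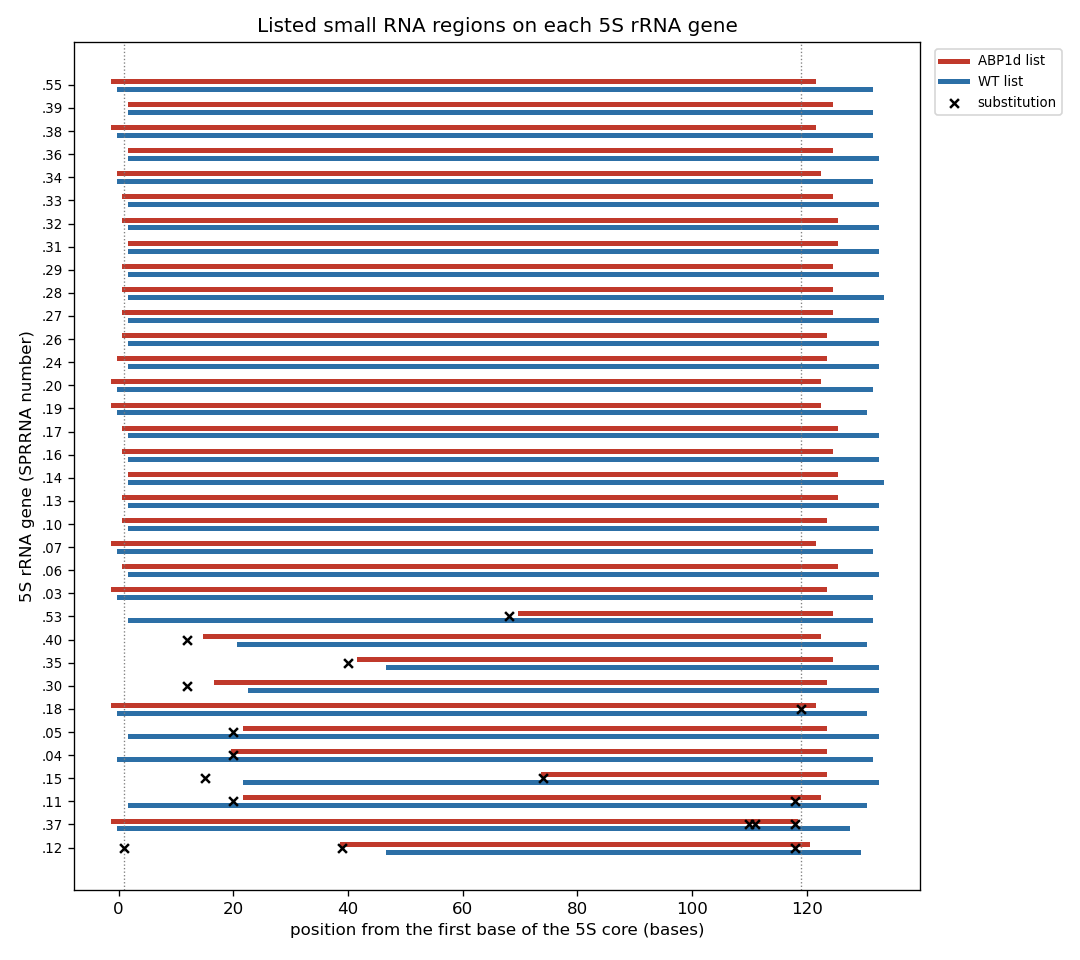
Listed region on each core-bearing 5S gene in the ABP1d list and the WT list, as bases from the first base of the core on the gene's strand; dotted lines mark core bases 1 and 119 and crosses mark substitutions. WT regions end at a median of 13 bases past the core and ABP1d regions at 4, and several ABP1d regions begin next to a substitution.

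The bases just after the core sorted the unchanged copies by their reads. The stretches below show the last 10 core bases in lower case and the 14 bases that follow in capitals, for 1 copy of each kind that is compared; SPRRNA.37 is added with its changed core end. In the order printed they lie at chr1:3830489-3830512 (plus), chr1:149767-149790 (plus), chr1:4184341-4184364 (minus), chr1:3165505-3165528 (plus), chr1:3634480-3634503 (plus), chr2:1504482-1504505 (plus) and chr2:4161605-4161628 (minus).
SPRRNA.17: gctgtaggctTCCTTTTATTCATT
SPRRNA.10: gctgtaggctCCTTCTTTTTTGAT
SPRRNA.19: gctgtaggctTTTTGCTTTTTTGT
SPRRNA.14: gctgtaggctCATCTTTTTTTGTT
SPRRNA.16: gctgtaggctTCATTTCGTTTTTT
SPRRNA.33: gctgtaggctATTTTTTTATATCC
SPRRNA.37: tttgtaggttCCTTCTTTATTATT
Grouped by the first 3 bases after the core, the 23 copies fell into 7 groups. Within a group the highest and lowest copy differed by at most 0.143% in ABP1d and 0.161% in WT, whereas over all 23 copies they differed by 5.38% and 11.4%. The 6 copies followed by CCT, such as SPRRNA.10, had 179914 to 179926 reads in ABP1d and 45595 or 45596 in WT. The 7 copies followed by TCC, such as SPRRNA.17, had 180567 to 180582 and 46082 to 46156.

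The copies followed by ATT, CAT or TCA had more WT reads than the rest. SPRRNA.16, followed by TCA, had 187 more reads than SPRRNA.17 in ABP1d and 2584 more in WT. SPRRNA.27, also followed by TCA, had the same 48672 WT reads as SPRRNA.16 and 1 ABP1d read fewer, and its main window had the lowest ratio of the 34, 2.26 (2.23 to 2.28). SPRRNA.33, followed by ATT, had 8735 more in ABP1d and 4661 more in WT, which is 4.84% and 10.1%. SPRRNA.34 (chromosome II, 2261371 to 2261489), also followed by ATT, was the highest copy in both strains. The 5 copies of these kinds had 48189 to 50795 WT reads, and the 18 others had 45595 to 46156. In ABP1d the groups were closer, since SPRRNA.14, followed by CAT, had 180229 reads against 180581 in SPRRNA.17. The ratio of ABP1d to WT was accordingly 2.26 to 2.27 on the 5 copies and 2.38 to 2.40 on the 18. The copies were set apart after their values were seen and share most of their reads, so these ratios describe them and no test is made. SPRRNA.35, whose core differs at base 40, is also followed by ATT and had 189191 reads in ABP1d and 50627 in WT, at a ratio of 2.27. SPRRNA.12, with G1A, C39T and C118T, is followed by ATT as well but had 167940 and 43174 reads, at a ratio of 2.36.

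**Figure D3:**
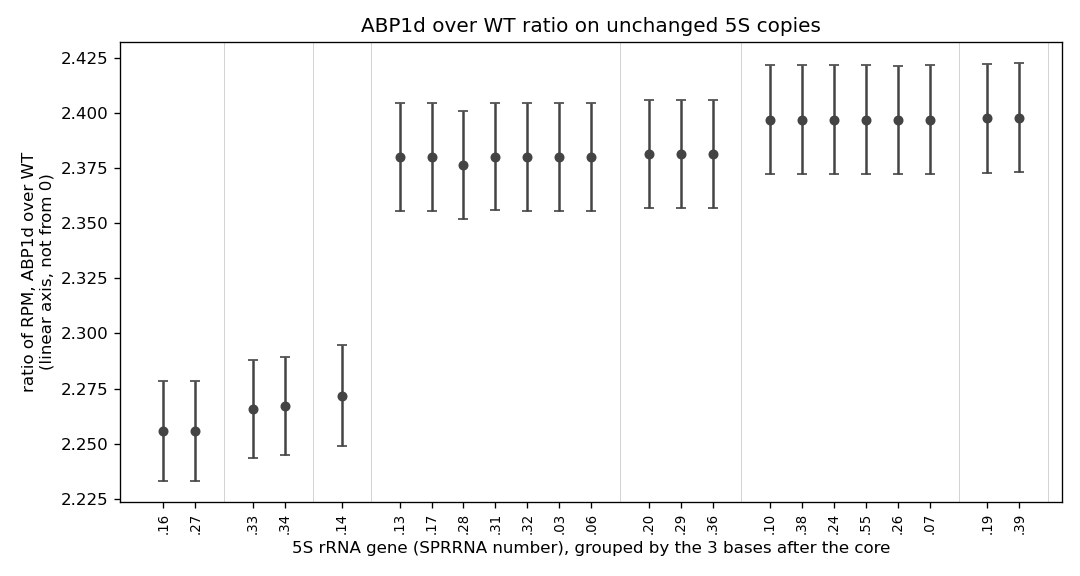
Ratio of RPM in ABP1d over WT on each of the 23 unchanged 5S copies with exact 95% binomial intervals of the reads, with grey lines between the 7 groups that share the 3 bases after the core. The 5 copies of the groups at the left lie at 2.26 to 2.27 and the other 18 at 2.38 to 2.40.

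Copies with a substitution near the 3′ end of the core were listed with fewer reads, and copies changed further upstream with almost as many as an unchanged copy. Each substituted copy was set beside the unchanged copy that shared the longest run of bases after the core. In the 7 copies whose last substitution lay at base 74 or before, 98.9% to 99.97% of the reads of the unchanged copy were listed in ABP1d and 99.2% to 99.98% in WT. SPRRNA.04, with C20T, had the same 20 bases after the core as SPRRNA.03 and 56 reads fewer in ABP1d and 9 fewer in WT. SPRRNA.40, with T12C, had 98 fewer than SPRRNA.19 in ABP1d and 107 fewer in WT. SPRRNA.15, with C15G and A74G, had the largest deficit of these copies in both strains, 1908 reads in ABP1d and 368 in WT.

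In the 4 copies with a substitution from base 110 onwards, 36.4% to 98.4% of the reads were listed in ABP1d and 30.5% to 96.5% in WT. SPRRNA.37 (chromosome II, 4161556 to 4161775) had 65524 reads in ABP1d and 13922 in WT. Its partner SPRRNA.38, with the same 17 bases after the core, had 179914 and 45595. SPRRNA.37 was the lowest core-bearing copy in both strains and had the highest ratio of their main windows, 2.86 (2.81 to 2.91) against 2.40 (2.37 to 2.42) in SPRRNA.38. SPRRNA.11 and SPRRNA.05 both carried C20T, and SPRRNA.11, which also had C118T, held 93.5% of the reads of SPRRNA.05 in ABP1d and 95.3% in WT. SPRRNA.18, with T119C, held 98.4% and 96.5% of the reads of its partner. SPRRNA.12 held 88.7% and 85.1%, although its partner SPRRNA.33 shared no more than 3 bases after the core. The number of mismatches the authors allowed was not given in the sources used here. Its part in these values was not tested.

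**Figure D4:**
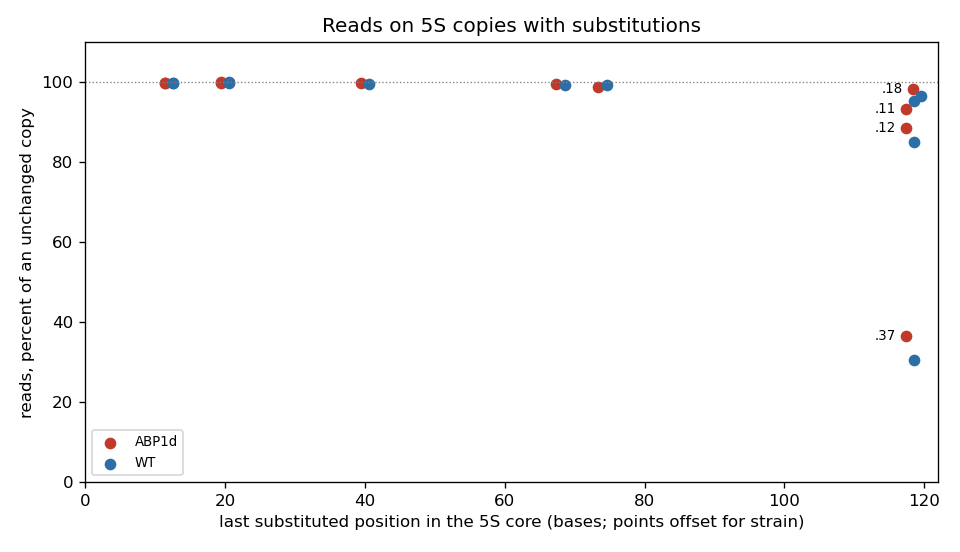
Reads on each of the 11 substituted 5S copies as a percent of the unchanged copy with the longest shared stretch after the core, by the last substituted core position, for ABP1d and WT (points of the strains are offset sideways). Copies changed at base 74 or before lie at 98.9% or above, and SPRRNA.37 lies at 36.4% in ABP1d and 30.5% in WT.

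Some regions began next to a substitution, which gave the reads in the 3′ part of a gene. The ABP1d region on SPRRNA.53 began at core base 70, next to C68T, and its 55 bases held 178879 of the 179423 reads of the window. The ABP1d region on SPRRNA.15 began at base 74 and held 177769 of 178321 reads in 50 bases. On both genes this was 99.7% of the ABP1d reads. The WT regions on the same genes began at bases 2 and 22, so the WT share could not be read in this way. SPRRNA.35 and SPRRNA.12 were the 2 genes with a pair of windows each, and both pairs met at the substitution near base 40. On SPRRNA.35 the 3′ window (chromosome II, 2322774 to 2322864) had 189191 reads in ABP1d and 50627 in WT, and the 5′ window (2322733 to 2322771) had 138 and 121. The 5′ window was thus 0.0729% of the reads in ABP1d and 0.238% in WT.

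The 5′ window of SPRRNA.35 was 1 of the 2 lower windows. Its 5.79 RPM in ABP1d stood against 8.36 in WT, giving a ratio of 0.693 (0.539 to 0.892), with p = 0.00545 in the authors' deposited table. The 5′ window of SPRRNA.12 (chromosome I, 912312 to 912348), over core bases 1 to 37 with the first base changed, had 81 reads in ABP1d and 19 in WT and was higher, with a ratio of 2.59 (1.56 to 4.52). Scaled by the totals, this pair of 5′ windows thus gave no common direction. With either centring both were lower, as were all 37 windows. On the other core-bearing copies no window of the comparison covered the 5′ part alone.

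The other lower window lay on SPRRNA.41 (chromosome II, 3171566 to 3171645, minus strand), 1 of the 2 genes without a core. It had 124 reads in ABP1d and 151 in WT over 35 bases (3171560 to 3171594), or 5.21 and 10.4 RPM, a ratio of 0.499 (0.390 to 0.637). The window covered the last 23 bases of the core-like part and 12 bases after it, so it ended where windows on the full copies end. The deposited p was 3.31e-08 in the authors' deposited table. SPRRNA.54 (chromosome II, 3096968 to 3097078, minus strand) was the only 5S gene with no row in any of the 3 files, so no level is given. Neither gene had a region in the strain lists. Their annotated sequences are shown because they are the copies with few or no listed reads.
SPRRNA.41: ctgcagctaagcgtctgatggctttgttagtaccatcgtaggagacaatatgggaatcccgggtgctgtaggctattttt
SPRRNA.54: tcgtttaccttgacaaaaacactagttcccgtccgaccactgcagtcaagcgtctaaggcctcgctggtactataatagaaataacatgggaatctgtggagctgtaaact
The best alignment to the core needed 20 edits around SPRRNA.41 and 28 around SPRRNA.54. The last 14 bases of the core were unchanged in SPRRNA.41. On full copies, by comparison, the main windows held no fewer than 65524 reads in ABP1d and 13922 in WT.

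Genes whose products make or carry 5S RNA were taken as a list of 26, with TFIIIA (sfc2), the La protein (sla1), the Rpl5 and Rpl11 genes, the assembly factors rpf2 and rrs1, TFIIIC and TFIIIB genes, the repressor maf1 and RNA polymerase III subunits. Of these 2 had a window (7.69%), against 792 of 5113 protein-coding genes (15.5%), a difference that was not tested. There were 3 windows in all, of which 2 were higher in ABP1d and 1 lower. The TATA-binding protein gene tbp1 had 51 reads in ABP1d and 8 in WT in a window at 4415762 to 4415784 of chromosome I, a ratio of 3.87 (1.82 to 9.45). Its other window had 11 reads and 1. The polymerase subunit gene rpc25 had 5670 reads in ABP1d and 3941 in WT (chromosome II, 2591907 to 2591941), a ratio of 0.874 (0.839 to 0.910), in a window that has 15 or more A in a row, or T in a row, within 30 bases of it. The table lists differing windows alone, so genes without one may still have reads.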

How the data were processed

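Small RNA libraries, 2 labelled WT and 2 labelled ABP1d, were made from total RNA, with products of 125 to 250 nucleotides kept after amplification, per the labels' protocols. Per the submitters' processing notes, Bowtie 0.12.5 was used. Genome build, multiple matches, region caller and test were not given in the sources used here. Values deposited by the authors were pooled RPKM (reads per length and per total), 1 for each strain, with a deposited p-value per region. Shared coordinates tied the comparison's columns to the strains (7 of 7 ABP1d and 124 of 124 WT regions equal).

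Multiplied by length, RPKM came out as whole reads in 100% of regions, and the totals were 23817270 for ABP1d and 14466014 for WT. The tolerance was 1e-06 of a step for the windows of the comparison and looser for the strain lists. Whether these totals count a shared read at each of its copies is not known, and library depth is unknown. Each ratio of RPM has an exact (Clopper-Pearson) 95% interval, given the reads of both strains. For log2 ratios, counts below 3 reads were set to 3. Start positions were taken as 0-based and converted to 1-based. Cores were placed by the fewest substitutions, without gaps (Python 3.11.15, scipy 1.17.1). Sequences are from RefSeq ASM294v3, and the fall of windows on cores was the check of the build. The totals, the intervals and the placing of cores were tested on simulated data without shared reads. Partner comparisons, the grouping by bases after the core and window ends were not part of that test.

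Named were the highest and lowest copies, extreme ratios, lower windows, genes without or with several windows, windows shorter than the gene (by count) and the most divergent copies. Other named copies, the partner comparisons and the grouping by bases after the core were chosen after the values were seen. The members and lists were chosen with earlier results of these data known. The count test foreseen for reads per library was not made, since values are pooled.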

Additional observations from a re-analysis of the deposited data

How the results depend on the processing

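Scaling decided the direction of the 5S windows. Centring moved the log2 ratios by 1.78 (all listed windows) or 1.60 (14 snRNA windows) and left 0 windows higher and 37 lower in both cases, with medians of -0.53 and -0.35. Both references had low levels in WT, with medians of 0.0691 and 0.277 RPM. Totals without the rRNA repeats and 5S genes moved the log2 ratios by 0.27, to a median of 0.98, with 35 higher and 2 lower. Those reduced totals depend on how shared reads entered the full totals, which is not known. The number of lower windows was 0 among windows that cover at least 50% of the gene and 0 among main windows on core-bearing copies, and 1 at a deposited p of at most 0.001; these alternatives leave out short windows or those with a larger p. The spread of main window reads between copies, a coefficient of variation of 11.4% in ABP1d and 12.9% in WT, was 1.46% and 3.43% on unchanged copies and 2.33% and 3.89% without SPRRNA.37. The median end past the core was 4 bases in the ABP1d list against 13 in the comparison. With windows of equal reads and length counted once, 34 were higher and 2 lower. Copies that differ by 1 read or 1 base still counted apart there, so shared reads were not removed. A floor of 1 read could not change the 5S values scaled by totals, because no 5S window had fewer than 19 reads in either strain. The centred medians rest on references taken with the floor of 3 reads, and a floor of 1 was not tried there. The choice of main windows and the removal of SPRRNA.37 were added after seeing the data. No paired analysis was possible because the deposited values are pooled over the libraries of a strain, and for the same reason no library could be left out. The depth per library is unknown, and intervals cover counting error only.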
